A study of Homo sapiens with 6 samples.

Results

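The segment of chromosome 12 from 10 to 30 Mb, on the short arm, was examined in HL-60 cells, a myeloblast line (as labelled) from a human promyelocytic leukaemia. H3K27me3 and H3K4me3 were mapped by ChIP-seq, the sequencing of DNA bound by an antibody against each mark, in HL-60 cells knocked out for JMJD3 (gene KDM6B) and in parental HL-60 cells. Both were grown in DMEM with serum, and how the knockout was made, and whether its cells are 1 clone, are not given in the sources used here. Each genotype and mark has 1 library, so the differences have no replicate check and no p-value was computed. A matching input library of each genotype was not analysed here. The labels name H3K4me3 as the antibody target of the H3K27me3 libraries too, so their mark was taken from the title.

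The peaks of the segment are the distinct entries of the 4 deposited peak lists that start at or after 10 Mb and before 30 Mb of chromosome 12. They number 435 of the 65225 listed peaks: 57 H3K27me3 peaks in knockout and 4 in parental cells, and 158 H3K4me3 peaks in knockout and 216 in parental cells. The segment was selected on these H3K27me3 peaks, chosen by their presence in 1 genotype, and their counts are given as a description. A peak is listed only when its centre lies within 20 kb of a transcript start site (TSS), and no list gives reads or peak heights, so the sequencing depth is unknown. Positions are hg19, counted from 1.

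H3K27me3 is laid down by Polycomb repressive complex 2 and marks genes held silent, often developmental and tissue-restricted genes, in broad regions. JMJD3 removes methyl groups from this residue. H3K4me3 sits at the promoters of active or poised genes. The segment holds the end of the lectin-like receptor genes of myeloid and natural killer cells, the ETV6 and CDKN1B region that is recurrently deleted in leukaemia, and the SLCO1 family of organic anion transporters. The targeted gene KDM6B lies on another chromosome; its promoter H3K4me3 measured 710 bp in knockout and 3041 bp in parental cells, which does not test the knockout itself. As a check of the cell type, 6 of 8 granulocyte markers carried promoter H3K4me3 in both genotypes, where 61.9% of all genes did. Here and below, all genes are the 18086 named in the peak lists. Marker and family lists can also hold genes that the peak lists do not name. MPO, CD33, SPI1, CEBPA and CEBPE were marked over at least 862 bp in each genotype. ELANE and AZU1 carried none within 5 kb in either. Of 6 lymphoid markers 2 were marked in both genotypes, among them CD79A, at 146 bp in knockout and 600 bp in parental cells. Of 5 erythroid markers EPOR and KLF1 were marked in both genotypes, and of 5 epithelial markers none was.

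The promoters of 4 genes are shown because they stand for the states found in the segment: SOX5 and KCNJ8 had H3K27me3 peaks near the start in knockout cells only, BHLHE41 had one in parental cells only together with H3K4me3, and CDKN1B had H3K4me3 alone. Each line gives the 250 bases before the start on the gene's own strand, from RefSeq (GRCh38.p14), 5′ to 3′. Each CG dinucleotide, the site of CpG methylation, is in capitals. For these 4 genes the start used by RefSeq and a start listed in hg19 lay at the spacing shared by the segment's genes, to within 200 bases.
SOX5, chr12:24562492-24562741, minus strand: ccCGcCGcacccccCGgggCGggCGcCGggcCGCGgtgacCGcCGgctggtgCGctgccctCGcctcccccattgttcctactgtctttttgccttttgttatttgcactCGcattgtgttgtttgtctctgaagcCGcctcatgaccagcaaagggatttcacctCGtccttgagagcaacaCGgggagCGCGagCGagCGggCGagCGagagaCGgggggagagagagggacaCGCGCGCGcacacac
KCNJ8, chr12:21774707-21774956, minus strand: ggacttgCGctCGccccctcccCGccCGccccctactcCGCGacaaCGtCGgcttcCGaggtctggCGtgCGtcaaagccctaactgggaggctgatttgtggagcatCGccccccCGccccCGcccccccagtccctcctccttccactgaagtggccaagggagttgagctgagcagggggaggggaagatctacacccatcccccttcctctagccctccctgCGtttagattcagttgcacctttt
BHLHE41, chr12:26125038-26125287, minus strand: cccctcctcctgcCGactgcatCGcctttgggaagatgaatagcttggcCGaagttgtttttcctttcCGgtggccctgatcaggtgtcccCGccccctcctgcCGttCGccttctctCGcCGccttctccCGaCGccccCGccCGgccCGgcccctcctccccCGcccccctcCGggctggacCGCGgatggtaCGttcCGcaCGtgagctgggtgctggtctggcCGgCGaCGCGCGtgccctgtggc
CDKN1B, chr12:12717118-12717367, plus strand: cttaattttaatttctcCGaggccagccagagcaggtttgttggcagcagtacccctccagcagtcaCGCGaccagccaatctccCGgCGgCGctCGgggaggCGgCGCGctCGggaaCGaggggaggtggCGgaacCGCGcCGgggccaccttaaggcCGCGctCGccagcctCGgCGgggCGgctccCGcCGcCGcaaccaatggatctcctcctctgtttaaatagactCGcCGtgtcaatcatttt
These windows held 27 CG dinucleotides at SOX5, 15 at KCNJ8, 26 at BHLHE41 and 27 at CDKN1B. The median over the 35116 promoters of the table was 11, and 93.9% of them held at least 1. A count as high as that of SOX5 or CDKN1B was found in 17.7% of all promoters and one as high as that of KCNJ8 in 42.9%. KCNJ8, marked by H3K27me3 in knockout cells, had the lowest count of the 4, and SOX5, in the same state, had as many as CDKN1B. The windows need not hold the peaks. The H3K27me3 peak at KCNJ8 was centred 1143 bp upstream and that at BHLHE41 1753 bp downstream of the start, both outside the window. Whether CG counts go with the marks was not tested.

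H3K27me3 was listed over a wide stretch of the segment in knockout cells and at only a few places in parental cells. The 57 knockout peaks covered 75.4 kb and the 4 parental peaks 8.80 kb. The ratio of knockout to parental peaks was 14.25, while it was 1.02 over the rest of chromosome 12 and 0.889 over the rest of the genome; the segment was selected for this, so no interval is set on it. Of the 57 knockout peaks 55 overlapped no parental peak, and of the 4 parental peaks 2 overlapped no knockout peak. Over the whole lists 70.4% of knockout and 72.8% of parental H3K27me3 peaks overlapped none. H3K4me3 in the same segment had a ratio of 0.731 (95% interval from counting alone 0.596 to 0.898), against 0.745 (0.733 to 0.758) over the rest of the genome. Neighbouring peaks are not independent, and the intervals cover counting error only.

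**Figure D1:**
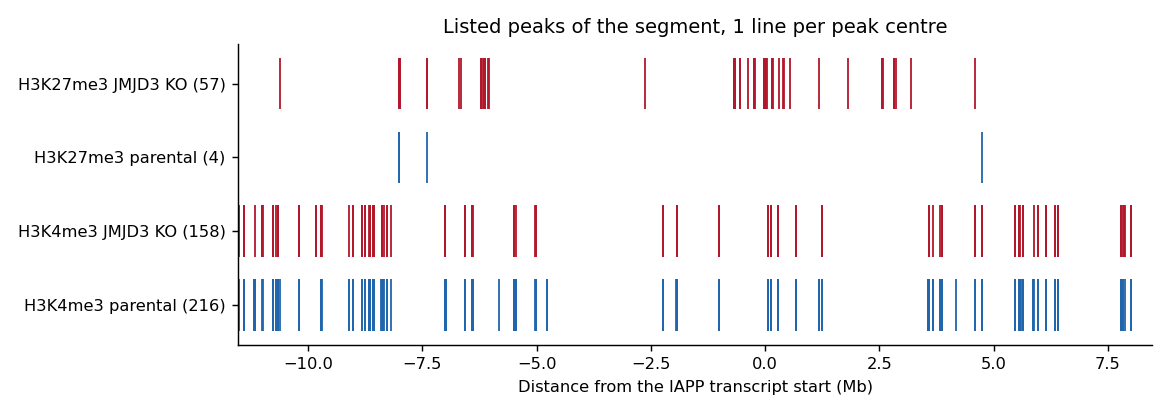
Centres of all 435 listed peaks by distance in Mb from the IAPP transcript start, 1 vertical line per peak, with 1 row for each library and red for JMJD3 KO and blue for parental cells. The 57 knockout H3K27me3 peaks stand in groups, 45 of them in the clusters described below, with up to 3.42 Mb between neighbours, against 4 parental peaks. Of the 158 knockout H3K4me3 peaks 134 overlap a parental one, and of the 216 parental ones 107 overlap a knockout one.

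The parental H3K27me3 peaks lay at 3 loci. The peak at chr12:13507140-13513689, with 6550 bp the widest of the segment, and that at chr12:13523941-13525005, with 1065 bp, lay -19265 and -5207 bp from the start of LINC01559, a long non-coding RNA. Distances run in the direction of the genome, and a negative one lies at lower coordinates than the start. A peak of 613 bp at chr12:14117364-14117976 lay -15353 bp from the start of GRIN2B, a subunit of the NMDA glutamate receptor of neurons. The last, of 576 bp at chr12:26275963-26276538, lay -1753 bp from the start of BHLHE41, a transcriptional repressor of the circadian clock. It was the only H3K27me3 peak of the segment that overlapped an H3K4me3 peak, and did so in both genotypes.

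Knockout H3K27me3 peaks were listed near LINC01559 and GRIN2B as well, but not at BHLHE41. LINC01559 had 4 knockout and 2 parental peaks within 20 kb, of 5210 and 7615 bp in all, and both parental peaks were overlapped. At GRIN2B 2 knockout peaks of 1635 and 561 bp lay -5025 and -2619 bp from the start, nearer to it than the parental peak. These were the only clusters held by both genotypes, where a cluster is at least 3 peaks of either list with gaps of at most 100 kb.

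In knockout cells only, 8 clusters were present, with 39 peaks and 56123 bp. No cluster was present in parental cells only. The state of a cluster is what chose it and is given as a description. None of the 10 clusters of either kind contained an H3K4me3 peak of either genotype.

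The cluster with the most peaks lay over RERG, its antisense gene RERG-AS1 and PTPRO. It ran over chr12:15300278-15480944 with 12 knockout peaks of 342 to 2949 bp (median 1190.0 bp), together 16277 bp. RERG encodes a RAS-like protein that restrains growth, and PTPRO a receptor tyrosine phosphatase known from kidney podocytes. RERG-AS1 and RERG each had 5 knockout peaks and no parental peak within 20 kb, and PTPRO had 2 and none. PTPRO was also the only gene of this cluster with promoter H3K4me3, in parental cells alone, over 205 bp at a second start outside the cluster.

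The SLCO1 transporters, which carry bile acids, hormones and drugs across the membranes of liver, kidney and brain cells, followed at higher coordinates. All 5 of the listed family members had knockout H3K27me3 peaks within 20 kb, and none had a parental one or any H3K4me3 peak of either genotype within that distance. Over all genes 5.27% had H3K27me3 within 20 kb in knockout cells only, and the segment was selected on these peaks. SLCO1C1, a thyroid hormone transporter of the blood-brain barrier, had 6 knockout peaks of 838 to 5302 bp over chr12:20837259-20869261, which covered 43.1% of that span, the highest share among the 10 clusters. SLCO1A2, a transporter of brain and kidney, had 4 knockout peaks of 8473 bp in all. SLCO1B1, a transporter of hepatocytes, had 3 knockout peaks of 3498 bp in a cluster of its own at chr12:21273919-21297946. SLCO1B3, its close relative in liver, had 2 knockout peaks of 711 bp, and SLCO1B7 had 1 of 696 bp; these 3 peaks belonged to no cluster.

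IAPP, the islet hormone amylin, and SPX, the peptide hormone spexin, followed within the same block. The peak at chr12:21525181-21526573, of 1393 bp with its centre 75 bp from the start of IAPP, was the only knockout H3K27me3 peak of the segment that spanned a TSS. IAPP and SLCO1A2 share a cluster of 5 knockout peaks, 9866 bp over 67.4 kb, in which single peaks are listed for both genes. SPX had a cluster of 3 knockout peaks with 2469 bp. Neither gene had a parental H3K27me3 peak or an H3K4me3 peak in either genotype within 20 kb.

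**Figure D2:**
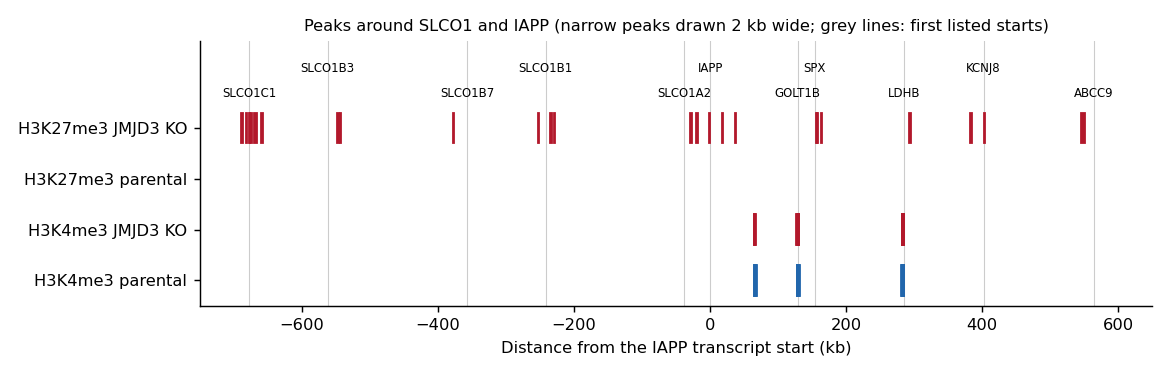
Peaks by distance in kb from the IAPP transcript start, with 1 row for each library, red for JMJD3 KO and blue for parental cells. Peaks narrower than 2 kb are drawn 2 kb wide, and grey lines mark the lowest listed start of each named gene. Knockout H3K27me3 peaks stand at each SLCO1 gene, IAPP, SPX, KCNJ8 and ABCC9, the parental H3K27me3 row is empty, and H3K4me3 stands at the same 3 places in both genotypes.

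The channel genes KCNJ8 and ABCC9, which encode the pore and the sulphonylurea receptor of an ATP-sensitive potassium channel, lay at the end of this block. KCNJ8 had 2 knockout H3K27me3 peaks, of which the one at chr12:21928739-21929059 (321 bp) lay 1143 bp upstream of the start whose promoter is printed above. With a peak listed for LDHB, a lactate dehydrogenase subunit, they formed a cluster of 3 knockout peaks. LDHB was the only gene of the clusters with promoter H3K4me3 in both genotypes, 781 bp in knockout and 2102 bp in parental cells, and its H3K27me3 peak lay 9635 bp from its nearest start. ABCC9 had a single knockout peak of 4932 bp at chr12:22072085-22077016, -15078 bp from its start.

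SOX5, a transcription factor of cartilage and neuron development, had 4 knockout H3K27me3 peaks and no parental peak within 20 kb of a start. A cluster of 3, with widths of 776, 1929 and 1009 bp, lay at chr12:24082823-24100343, next to the starts of shorter transcripts. The fourth peak, of 412 bp at chr12:24715455-24715866, was centred 277 bp upstream of the start whose promoter is printed above. SOX5 had no H3K4me3 peak within 20 kb of a start in either genotype.

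A last cluster of 4 knockout peaks with 3532 bp, at chr12:24346067-24396020, ran past the starts of the microRNA gene MIR920 and the non-coding LOC101928471. Of these peaks 3 were centred 9467 to 19011 bp below the MIR920 start and 1 was centred 19234 bp above that of LOC101928471. None spanned either start. The cluster also lies between the lowest and highest listed starts of SOX5, at 24102638 and 24715384. The mature miRNA is shown with its seed, bases 2 to 8, in capitals (RefSeq, GRCh38.p14, chr12:24212471-24212490, plus strand).
hsa-miR-920: gGGGAGCUguggaagcagua
The other 12 knockout peaks stood outside clusters. Besides the 3 at SLCO1B3 and SLCO1B7, that at ABCC9 and the last one at SOX5, GUCY2C, the intestinal receptor guanylate cyclase, had 2, of 1035 and 1255 bp. PLCZ1, a sperm phospholipase, and CAPZA3, a sperm actin capping protein, shared 1 of 524 bp. The remaining 4 lay at LOC101928162 (1179 bp), C2CD5 (316 bp), LOC101928441 (430 bp) and the shared start region of RASSF8 and RASSF8-AS1 (346 bp).

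Counted by gene, promoter H3K27me3 was listed in knockout cells only for 13 of the segment's 106 genes, where 2.6% of all 18086 genes in the files were in that state. It was listed in parental cells only for 1 gene, BHLHE41, where the share over all genes was 2.74%, and in both genotypes for 0, where it was 2.37%. A gene counts as one of the segment when a peak of any list stands within 20 kb of a start there. It counts as marked when a peak centre lies at most 5 kb from a start or a peak spans it. Because the segment was selected on its knockout H3K27me3 peaks, and some of its genes are counted only through them, these shares are a description. The widest of the 13 were SLCO1C1 with 3417 bp, RERG-AS1 with 2035 bp, SOX5 with 1421 bp, IAPP with 1393 bp and SLCO1A2 with 1195 bp. RERG (660 bp), GRIN2B (561 bp), LINC01559 (461 bp), LOC101928441 (430 bp), SPX (385 bp), RASSF8 and RASSF8-AS1 (346 bp) and KCNJ8 (321 bp) followed. Parental H3K27me3 measured 0 bp at each. Within 20 kb of a start, 24 genes had knockout peaks only, BHLHE41 alone had parental peaks only, and GRIN2B and LINC01559 had both, where 5.27%, 5.19% and 7.74% of all genes were in these states.

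Of the 13 genes with promoter H3K27me3 in knockout cells only, 11 were without promoter H3K4me3 in either genotype. Of the segment's genes 36.8% and of all genes 27.7% were without it. Genes are counted only when a listed peak stands near them, and some of the 13 had no listed peak but knockout H3K27me3. The difference between these shares is therefore partly set by how genes enter the count, and it is given as a description. The exceptions, RASSF8 and RASSF8-AS1, share their peaks and carried H3K4me3 over 768 bp in knockout and 1647 bp in parental cells. The 57 knockout H3K27me3 peaks lay a median of 246.9 kb from the nearest knockout H3K4me3 peak, and 2 lay within 10 kb of one. No knockout H3K27me3 peak of the segment overlapped knockout H3K4me3; over the whole list 1.36% did. By distance to the nearest start, 2 of 57 knockout peaks were centred within 1 kb, 14 from 1 to 5 kb, 14 from 5 to 10 kb and 27 from 10 to 20 kb. These bands differ in width and end at the listing limit. The same split was not made over the whole list, so it is not read as a trait of these peaks.

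The numbers in the peak names extend this comparison to peaks that are not listed. In all 4 lists the numbers ran in the order of the positions with 0 breaks, so that the numbers missing between listed neighbours count called peaks with no line. Of the H3K27me3 peaks numbered over the whole genome, 20.7% were listed in knockout and 20.6% in parental cells. From the first to the last listed peak of the segment 238 numbers ran in knockout and 48 in parental cells.

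Most parental numbers lay between LINC01559 and GRIN2B. Between the peaks at LINC01559 and those at GRIN2B, a gap of 587 kb in the knockout and 592 kb in the parental list, 32 peaks were unlisted in knockout and 42 in parental cells, so both genotypes had called H3K27me3 peaks there, at positions the lists do not give. From the parental GRIN2B peak to that at BHLHE41, over 12.2 Mb, 52 knockout peaks were listed and between 190 and 229 were numbered, against 0 listed and at most 2 numbered parental peaks. Over the same 12.2 Mb, 59 knockout and 92 parental H3K4me3 peaks were listed. Reads of the input libraries were not analysed here, and whether copy number or depth moves with this difference was not tested. The ends of the stretch were chosen after its values were seen.

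**Figure D3:**
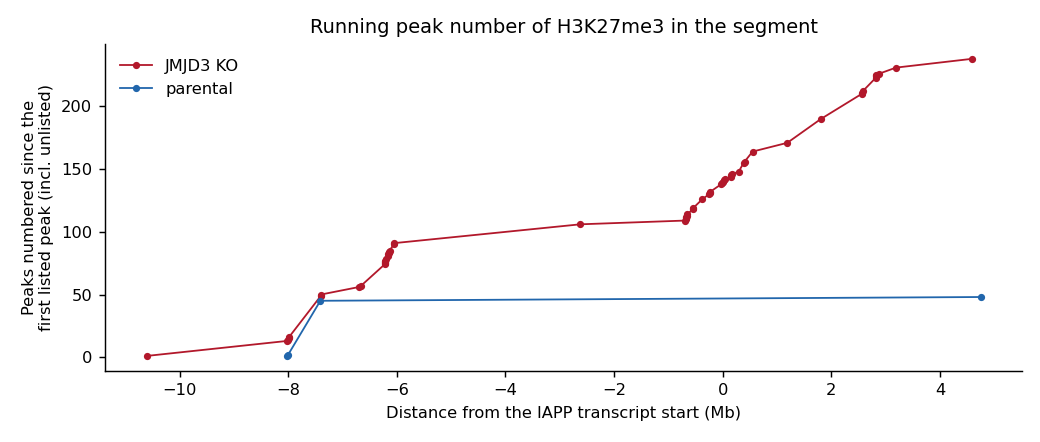
Running number of H3K27me3 peaks since the first listed peak of the segment, unlisted peaks included, against the distance in Mb from the IAPP transcript start; dots are listed peaks, red for JMJD3 KO and blue for parental cells. Both lines climb between the peaks at LINC01559 and GRIN2B, where unlisted peaks have no known positions, after which the knockout line reaches 238 and the parental line stays at up to 48.

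The edges at 10 and 30 Mb are not the edges of the difference. Between 0 and 10 Mb of chromosome 12 the H3K27me3 lists held 18 knockout and 19 parental peaks, between 10 and 20 Mb 22 and 3, and between 20 and 30 Mb 35 and 1. Past the segment they held 5 and 0 between 30 and 40 Mb, 13 and 0 between 40 and 50 Mb, 14 and 8 between 50 and 60 Mb, 14 and 0 between 60 and 70 Mb, and 27 and 26 between 70 and 80 Mb. The parental list had no peak for 25.7 Mb after BHLHE41, up to chr12:51991458-51991864 at SCN8A, and 1 unlisted number in between. The last knockout peak inside the segment, at RASSF8, and the first one after it, chr12:32922254-32923426 at YARS2, were 6.81 Mb apart. Before the segment the nearest peaks were chr12:9402916-9403281 at LINC00987 in knockout and chr12:8850179-8850952 at RIMKLB in parental cells, and the first ones inside were those at LOC101928162 and LINC01559. Of 140 bins of 10 Mb across the genome with at least 20 H3K27me3 peaks in both lists together, 1 held at least 90% knockout peaks, that from 20 to 30 Mb of chromosome 12, and 0 held at least 90% parental peaks. These bins and limits were set after the values were seen, on the peaks by which the segment was selected. The floor of 20 peaks leaves out one-sided bins of chromosome 12. These are 30 to 40 Mb (5 knockout, 0 parental), 40 to 50 Mb (13 and 0), 60 to 70 Mb (14 and 0) and 110 to 120 Mb (0 and 11). The segment's other bin, with 22 and 3, fell short of 90%.

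**Figure D4:**
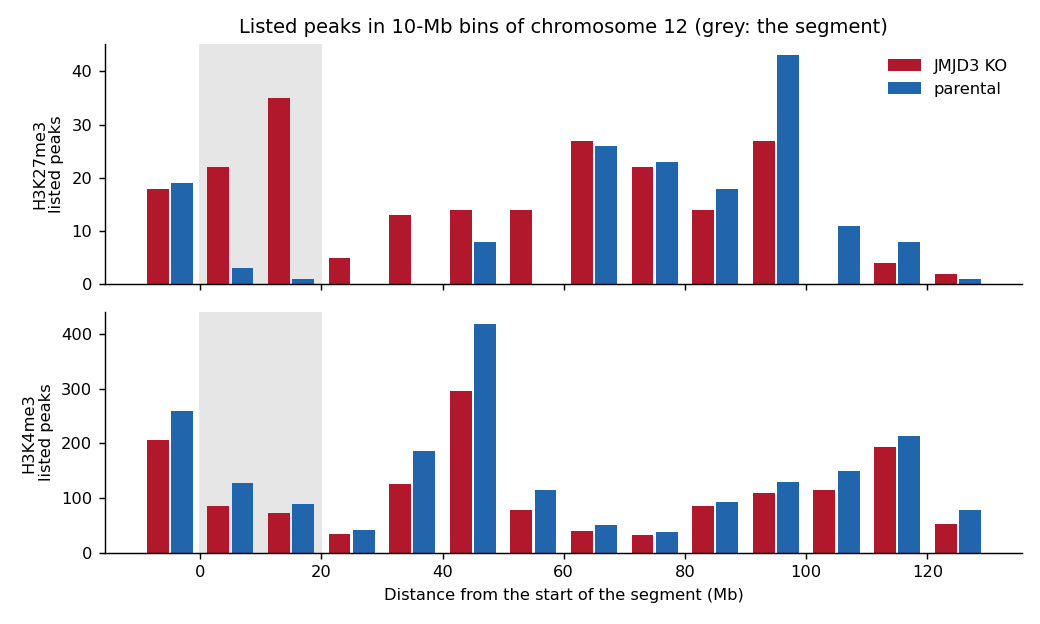
Listed peaks in each 10-Mb bin of chromosome 12 by distance in Mb from the start of the segment, H3K27me3 above and H3K4me3 below, with red bars for JMJD3 KO and blue bars for parental cells; the grey area is the segment. For H3K27me3 the segment's bins hold 22 and 35 knockout against 3 and 1 parental peaks, while for H3K4me3 they hold 86 and 72 against 127 and 89.

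H3K4me3 peaks in the segment were fewer and narrower in knockout than in parental cells, as over the whole lists. The 158 knockout peaks had a median width of 241.5 bp and covered 46.2 kb, and the 216 parental peaks a median of 309.5 bp and covered 102 kb. The covered length was 0.451 times the parental one, against 0.474 over the rest of the genome. The parental list was also reduced to its widest peaks, as many as the knockout list held genome-wide. The ratio of peak numbers in the segment was then 1.03 and that of covered length 0.503. This cut makes the list lengths equal by design, so it cannot show why fewer knockout peaks were listed. Parental H3K4me3 overlapped 84.8% (78.4 to 89.6) of the knockout peaks and missed 24, where 11.3% of the whole list was missed. Knockout H3K4me3 overlapped 49.5% (42.9 to 56.2) of the parental peaks and missed 109, where 47.4% of the whole list was missed.

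Promoter H3K4me3 was listed in both genotypes for 61 of the 106 genes, a state of 61.9% of all genes. Parental cells alone had it at 5 genes, where the share over all genes was 9.45%, and knockout cells alone at 1, where it was 0.984%. All 61 genes marked in both lists had a smaller summed width in knockout cells, where 95.9% of such genes did over the whole genome. Their median log2 ratio of width, knockout over parental, was -1.13 (quartiles -1.57 and -0.58), against -1.01 over all genes marked in both. Width shows how far a called peak reaches, not how much of the mark it holds. Within 20 kb of a start 75 genes had H3K4me3 in both lists, 1 in knockout cells only and 10 in parental cells only, where 74.3%, 1.28% and 10.8% of all genes were in these states.

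ARHGDIB, an inhibitor of small GTPases in blood cells, had 6 peaks of 1877 bp in knockout cells, against 10 peaks of 5023 bp in parental cells, a log2 ratio of -1.42. It had the largest summed promoter width of the segment in both genotypes. CLEC12A, a lectin receptor of myeloid cells, had 1135 bp in knockout and 3596 bp in parental cells (-1.66), of which a single parental peak took 2187 bp. Of the 14 listed lectin-like and natural killer receptors, CLEC12A alone had promoter H3K4me3, and 9 are not named in any of the 4 lists. CLEC2B, a lectin-like receptor outside that list, had 225 bp in knockout and 646 bp in parental cells. OLR1, a scavenger receptor of the same cluster, had 2 parental H3K4me3 peaks within 20 kb and no knockout peak.

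The ETV6 and CDKN1B region carried H3K4me3 in both genotypes. Of its 12 listed genes 10 were marked by H3K4me3 in both lists, where 61.9% of all genes were, with a median log2 ratio of -1.17. None had a listed H3K27me3 peak within 20 kb. The gaps between listed H3K27me3 peaks that take in this region held 11 unlisted knockout and 6 unlisted parental numbers, whose positions are unknown. ETV6, a transcriptional repressor needed for blood stem cells, had 1015 bp in 4 peaks in knockout cells, against 3333 bp in 9 peaks in parental cells (-1.72). CDKN1B, the cell cycle inhibitor p27, had 1846 bp in 6 knockout peaks against 3692 bp in 5 parental peaks (-1.0), and the widest parental H3K4me3 peak of the segment, chr12:12871056-12873332, was centred 1990 bp from its start. APOLD1, an endothelial early response gene that starts near CDKN1B and can share its peaks, had 1521 bp in knockout and 4651 bp in parental cells (-1.61). LRP6, a WNT co-receptor, was narrow in both, at 240 bp in knockout and 313 bp in parental cells.

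Among genes of chromatin and transcription, AEBP2, an accessory subunit of Polycomb repressive complex 2, had 688 bp of promoter H3K4me3 in knockout and 2292 bp in parental cells (-1.74), and no H3K27me3 peak within 20 kb. BHLHE41 had 1679 bp in knockout and 2565 bp in parental cells (-0.61) beside its parental H3K27me3 peak. The metabolic gene BCAT1, a branched-chain aminotransferase, had the lowest ratio of the segment, -3.01, with 346 bp in 2 knockout peaks against 2784 bp in 7 parental peaks. ASUN and FGFR1OP2 share their peaks, 717 bp in knockout and 3125 bp in parental cells (-2.12). The ratio nearest to 0 was that of MED21, a subunit of Mediator, with 579 bp in knockout and 696 bp in parental cells (-0.27), followed by ETNK1, an ethanolamine kinase, with 1273 bp in knockout and 1573 bp in parental cells (-0.31).

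**Figure D5:**
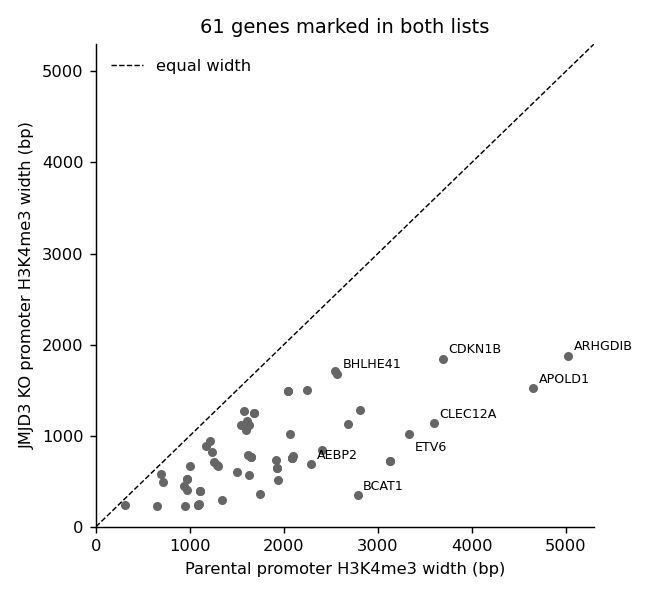
Summed promoter H3K4me3 width in bp in JMJD3 KO cells (vertical axis) and in parental cells (horizontal axis) for the 61 genes marked in both lists, 1 dot per gene, with the line of equal width dashed. All dots lie below the line, with ARHGDIB (1877 and 5023 bp) farthest to the right and BCAT1 (346 and 2784 bp) among the lowest for its parental width.

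Promoter H3K4me3 in 1 genotype only had summed widths of 154 to 867 bp. In parental cells only it stood at C2CD5 with 867 bp, LMO3, a LIM-only transcriptional cofactor, with 445 bp, LOC101928162 with 228 bp, PTPRO with 205 bp and LMNTD1 with 154 bp. In knockout cells only it stood at LINC01252 with 392 bp. Of the 5 genes marked in parental cells only, C2CD5, LOC101928162 and PTPRO also had knockout H3K27me3 within 20 kb (316, 1179 and 2767 bp), while LMO3 and LMNTD1 had none. Knockout H3K27me3 alone stood within 20 kb of 24 of the 106 genes of the segment, and at PTPRO it lay by another start than H3K4me3.

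The other gene families of the segment differed in how many of their members carried each mark. Of 14 bitter taste receptor genes only TAS2R42 is named in any list, and its H3K4me3 peaks were those of PRH1. PRH1 was the only one of 7 salivary proline-rich protein genes with promoter H3K4me3, 758 bp in knockout and 2088 bp in parental cells (-1.46). Over all genes 61.9% had promoter H3K4me3 in both lists and 2.6% had promoter H3K27me3 in knockout cells only. Of 10 metabolic enzyme genes 8 were marked by H3K4me3 in both lists (median log2 ratio -1.24), and of 13 genes of RAS and other signalling 5 were in both and PTPRO in parental cells only. RERG and RASSF8 of the signalling list, GRIN2B and KCNJ8 of 4 channel genes, SLCO1C1 and SLCO1A2 of the 5 transporters and SOX5 of 11 transcription and chromatin genes had promoter H3K27me3 in knockout cells only. So did IAPP, of 8 genes of secreted and matrix proteins, none of which had promoter H3K4me3. Of 10 genes of RNA handling, translation and the Golgi, 8 carried H3K4me3 in both lists (median log2 ratio -0.85), and none had an H3K27me3 peak within 20 kb.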

How the data were processed

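ChIP-seq libraries of H3K27me3 and H3K4me3 from JMJD3 knockout and parental HL-60 cells were compared through the 4 peak lists that the authors deposited. Per the submitters' processing notes, MACS2 2.1.1, BWA 0.7.10 and SAMtools were used with hg19; settings and the use of inputs as controls are not given in the sources used here. Per the file headers, each line pairs a peak with a RefSeq transcript, a distance and a score; the score deposited by the authors falls with the distance alone and was not used. Starts were read as counted from 0, which no source used here states. Distinct peaks were counted by position; overlap means at least 1 bp. Peak-to-TSS links, clusters, widths and Wilson 95% intervals were computed in Python 3.11.15 with pandas 2.3.3 and SciPy 1.17.1, and the code was tested on simulated data. Promoter sequences were matched by symbol for 63 of the 106 genes. Genes were named by state and width: up to 12 per genotype with H3K27me3, the 6 widest H3K4me3 genes of each single-genotype state, the 5 largest losses in bp (0 gains occurred), ETV6, CDKN1B, AEBP2 and list members whose state differed. Another gene under this rule is not reported here. The other genes given with values, such as ABCC9, GUCY2C, LDHB, MED21, ETNK1, LRP6, CLEC2B and OLR1, were chosen after their values were seen. The segment and the gene lists were chosen with earlier results of these data known. Alternatives were window, gene link, peak width, list length, overlap and cluster linking.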

Additional observations from a re-analysis of the deposited data

How the results depend on the processing

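The excess of knockout H3K27me3 peaks, on which the segment was selected, kept its direction in each setting tried. All settings use the peaks by which the segment was selected, so this is no further support for the excess. Equal list length and placing peaks by their centre left the ratio of peak numbers at 14.25. Equal length shortened only the parental H3K27me3 list, so it could not lower this ratio. Peaks of at least 1000 bp gave 16, from 32 knockout and 2 parental peaks. The ratio of covered length was 8.01 to 8.56. No cluster was present in parental cells only in any setting. The settings below moved other values, and the cause was not tested unless given. H3K27me3 peaks of at least 1000 bp gave 3 clusters in knockout cells only, 5 genes marked in knockout cells only and 0 in parental cells only, and 100% of parental peaks overlapped. A linking distance of 200 kb gave 4 such clusters, since neighbours merge, and a minimum of 5 peaks gave 3. Within 1 kb of the TSS, promoter H3K27me3 stood in knockout cells only for 2 genes and in parental cells only for 0, and for 1 and 0 with peaks that span the TSS. With 10 kb LINC01559 joined both lists (1 gene), and within 20 kb, a limit added after seeing the data, 24 genes had knockout peaks only and 2 both. With 50% of the peak covered 0% of parental H3K27me3 peaks overlapped, and with reciprocal overlap 0% of either list. For H3K4me3, peaks of at least 300 bp gave a peak ratio of 0.435, a covered ratio of 0.287, overlap shares of 90% (knockout) and 38.3% (parental), and 0 genes in knockout cells only, 24 in parental cells only and 37 in both. Lists of equal length gave a ratio of 1.03, a parental overlap of 62.1%, and 2 genes in knockout cells only and 3 in parental cells only, with a covered ratio of 0.503. With 50% of the peak covered the shares were 73.4% and 25%, and with reciprocal overlap 22.2% and 16.2%. Within 1 kb 2 genes were marked in knockout cells only and 11 in parental cells only; with peaks that span the TSS these were 0 and 14, with 5 in both; counting the nearest gene only gave 2 in knockout cells only. The median log2 width ratio stayed between -1.12 and -1.09. No named gene changed sign in the planned settings, though a difference that fell to 0 bp was not counted as a change of sign. Within 20 kb LINC01559 had 5210 bp of H3K27me3 in knockout and 7615 bp in parental cells, against 461 and 0 bp at its promoter. Of the 14 genes named for H3K27me3, 2 kept their state within 1 kb (IAPP and SOX5), and of the 15 named for H3K4me3, 9 did. With peaks that span the TSS 1 of the 14 (IAPP) and 1 of the 15 (LMO3) kept their state. No paired analysis was possible because each genotype and mark has 1 library and no test was made. Without read depth, a missing peak does not show that the mark is absent.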

Other observations

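Outside the segment, the 10-Mb bin from 110 to 120 Mb of chromosome 12 held 0 knockout and 11 parental H3K27me3 peaks, with 115 knockout and 150 parental H3K4me3 peaks. From 100 to 110 Mb the H3K27me3 lists held 27 knockout and 43 parental peaks.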
